A study of Mus musculus with 16 samples.

Results

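The replication-dependent histone genes encode the core histones H2A, H2B, H3 and H4 and the linker histone H1 that package newly copied DNA. They were taken by symbol from the table of deposited values, as genes named Hist1h to Hist4h without pseudogenes. Of 66 such genes, 59 exceeded the lowest value of the table by 1 log2 unit or more in at least 4 of 16 libraries and are described here. The whole table held 24334 genes, of which 15715 passed the same filter and were tested. The 59 genes comprised 5 H1, 14 H2A, 16 H2B, 12 H3 and 12 H4 genes. By cluster, 49 were Hist1 genes on chromosome 13, 8 were Hist2 genes on chromosome 3, 1 was the Hist3 gene on chromosome 11 and 1 the Hist4 gene on chromosome 6.

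RNA was measured in LLC1 tumour cells, a mouse Lewis lung carcinoma line, enriched from tumour-bearing mice after 16 days of treatment. The groups were TMP195, an inhibitor of class IIa histone deacetylases (50 mg/kg), MYCi975, an inhibitor of the transcription factor MYC (50 mg/kg), Combo, both compounds at doses the labels do not give, and Vehicle, DMSO. Each group held 4 libraries, numbered 1 to 4, made with a stranded total RNA kit. The labels give neither the enrichment method nor whether each library is a separate animal, so p-values measure only how far these libraries differ, which may be technical. The depth per library is unknown, because values were deposited after variance stabilisation. They are on a log2-like scale that is not set per transcript length, so levels are compared for 1 gene between libraries and not between genes. In bulk RNA, fewer cells of a type and less RNA per cell cannot be told apart.

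Most mRNAs end in a poly(A) tail. Replication-dependent histone mRNAs end instead after a short conserved stem-loop, which is bound by the stem-loop binding protein SLBP, and they are made in bulk during S phase and degraded when DNA synthesis stops. Their transcription is driven by NPAT at the histone locus body, and their ends are cut by the U7 snRNP, which carries the proteins LSM10 and LSM11. The genes lie in clusters without introns, with many near-identical copies, and some of them also give polyadenylated transcripts. A library from total RNA, which does not depend on the tail, captures both kinds.

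The stem-loop is shown for the genes the results turn on, since it is the feature that sets these mRNAs apart from others. Annotated GENCODE M21 transcripts were searched on the sense strand for the stem-loop, as 16 bases that start with GG, hold CTT at bases 5 to 7, T at base 9 and AG at bases 11 and 12, and end with CC. It overlaps no other motif searched, and 41 of 59 genes held a match in any annotated transcript. Counted by transcript and with those of the histone genes included, 0.36% of 58797 protein-coding transcripts held a match. The stem-loop was found in 3 of 5 H1, 9 of 14 H2A, 9 of 16 H2B, 9 of 12 H3 and 11 of 12 H4 genes. The form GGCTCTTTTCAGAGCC occurred in 23 genes of the H1, H2A, H2B and H3 classes, and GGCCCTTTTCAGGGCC in 6 genes, all of them H4. A missing match says only that the annotated transcript does not hold these letters. Capitals mark the 16 bases of the motif, with 5 bases on either side.
Hist1h1e: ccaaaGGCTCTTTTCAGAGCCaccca
Hist1h2ac: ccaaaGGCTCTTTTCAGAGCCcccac
Hist1h2bg: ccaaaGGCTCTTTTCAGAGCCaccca
Hist1h2bb: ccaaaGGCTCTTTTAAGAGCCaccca
Hist1h3c: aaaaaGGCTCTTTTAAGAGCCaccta
Hist1h3g: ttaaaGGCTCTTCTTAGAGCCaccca
Hist1h4d: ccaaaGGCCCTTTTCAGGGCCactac
Hist1h4b: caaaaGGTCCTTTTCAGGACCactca

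The annotated transcript ended within 100 bases of the stem-loop in 20 genes and ran further in 21. Sequence identity between members limits how well reads can be assigned. Of all words of 31 bases in a member's annotated transcripts, a median of 55.2% also occurred in another histone gene, with a range from 0.1% to 98.3%, and 35 of 59 genes shared over 50%. The median was 3.1% for H1, 74.9% for H2A, 55.5% for H2B, 61.1% for H3 and 40.8% for H4. Values of single H2A, H2B and H3 genes are therefore uncertain where the quantification divided reads between copies.

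Promoters, from 250 bases before to 50 after the start, were matched by Entrez gene identifier in RefSeq (GRCm38.p6) for 54 of the 59 genes. They were searched on both strands for TATAAA (the TATA box), the CCAAT box and ATTTGCAT (the octamer known from H2B promoters), none of which lies within another. CCAAT was found in 85.2% of them against 37.4% of 32544 promoters, TATAAA in 55.6% against 13.6%, and the octamer in 20.4% against 1.8%. All matched H1, H2A, H2B and H3 promoters held CCAAT, but 3 of 11 H4 promoters did. The octamer occurred in 6 H2A and 5 H2B promoters, some of which overlap because H2A and H2B genes lie in divergent pairs. A match is not evidence that a factor binds. The promoters shown belong to Hist1h2bb, Hist1h2bg and Hist1h3c, which stand among the smallest p-values for TMP195, and to Hist1h2ah, which lay on the other side of Vehicle in MYCi975. That of Hist1h2bb lies at chr13:23746484-23746783 on the plus strand, that of Hist1h2bg at chr13:23571150-23571449 on the plus strand, that of Hist1h2ah at chr13:22035594-22035893 on the minus strand and that of Hist1h3c at chr13:23745472-23745771 on the minus strand. Capitals mark the motifs on either strand, so that ATTGG and ATGCAAAT are CCAAT and the octamer on the other strand.
Hist1h2bb: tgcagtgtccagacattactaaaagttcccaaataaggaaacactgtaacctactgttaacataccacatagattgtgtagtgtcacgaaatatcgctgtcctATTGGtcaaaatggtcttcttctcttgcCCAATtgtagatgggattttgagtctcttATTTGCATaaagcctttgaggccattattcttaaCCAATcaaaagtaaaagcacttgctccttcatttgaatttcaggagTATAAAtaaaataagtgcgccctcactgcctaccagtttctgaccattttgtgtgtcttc
Hist1h2bg: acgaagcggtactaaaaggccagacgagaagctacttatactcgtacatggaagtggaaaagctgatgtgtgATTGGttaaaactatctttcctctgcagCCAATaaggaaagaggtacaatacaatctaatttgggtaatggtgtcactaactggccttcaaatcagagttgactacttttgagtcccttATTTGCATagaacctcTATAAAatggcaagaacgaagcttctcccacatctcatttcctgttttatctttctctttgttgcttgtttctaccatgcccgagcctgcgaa
Hist1h2ah: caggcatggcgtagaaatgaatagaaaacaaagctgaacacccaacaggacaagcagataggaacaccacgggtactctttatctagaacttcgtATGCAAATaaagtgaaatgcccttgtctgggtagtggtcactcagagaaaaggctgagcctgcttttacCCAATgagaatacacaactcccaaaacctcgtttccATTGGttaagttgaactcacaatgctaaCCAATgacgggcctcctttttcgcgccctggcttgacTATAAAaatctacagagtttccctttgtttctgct
Hist1h3c: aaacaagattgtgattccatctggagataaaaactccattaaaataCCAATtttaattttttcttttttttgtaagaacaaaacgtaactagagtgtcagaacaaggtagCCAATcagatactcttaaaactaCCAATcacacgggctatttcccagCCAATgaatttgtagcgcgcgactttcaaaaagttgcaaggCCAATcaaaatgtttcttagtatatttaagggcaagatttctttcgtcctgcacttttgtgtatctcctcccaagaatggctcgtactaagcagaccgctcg

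Libraries were first compared by the mean over the 59 genes. In TMP195 replicates 1 to 4 the mean was 7.89, 8.17, 8.46 and 8.63. In MYCi975 it was 8.34, 8.47, 8.69 and 8.77, and in Combo 8.41, 8.23, 8.45 and 8.47. In Vehicle it was 8.54, 8.81, 8.31 and 8.83. TMP195 replicates 1 and 2 were the lowest of all 16 libraries, Vehicle replicates 2 and 4 the highest, and every treated group overlapped Vehicle. The group means were 8.29 ± 0.32 in TMP195, 8.57 ± 0.20 in MYCi975, 8.39 ± 0.11 in Combo and 8.62 ± 0.25 in Vehicle (SD, n = 4 each). TMP195 replicate 1 was the lowest library for 37 of 59 genes (62.7%), against 10.1% of the genes tested. Vehicle replicate 4 was the highest for 20 genes (33.9%) and Vehicle replicate 2 for 15 (25.4%), against 12.1% and 9.71% of the genes tested.

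**Figure D1:**
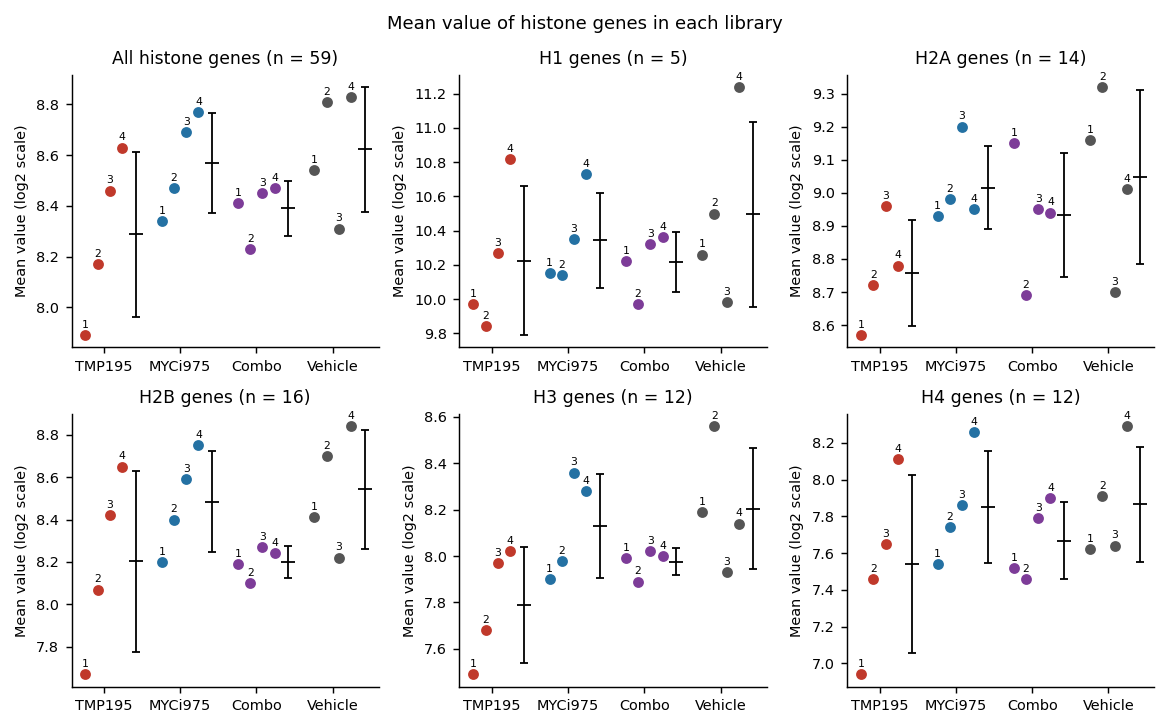
Mean value of all 59 histone genes and of each class (vertical axis, log2 scale) in every library (points, numbered by replicate), by treatment; black marks give the group mean and its SD (n = 4), and axes do not start at 0. TMP195 replicate 1 is the lowest point in the panels for all genes (7.89), H2A, H2B, H3 and H4, and TMP195 replicate 2 is the lowest for H1 (9.84).

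The classes did not all order the libraries alike. The H4 mean was 6.94, 7.46, 7.65 and 8.11 in TMP195, 7.54, 7.74, 7.86 and 8.26 in MYCi975, 7.52, 7.46, 7.79 and 7.90 in Combo, and 7.62, 7.91, 7.64 and 8.29 in Vehicle. Replicate 4 was the highest of its group in all 4 groups for H4. The H2A mean was 8.57, 8.72, 8.96 and 8.78 in TMP195, 8.93, 8.98, 9.20 and 8.95 in MYCi975, 9.15, 8.69, 8.95 and 8.94 in Combo, and 9.16, 9.32, 8.70 and 9.01 in Vehicle. In H2A, replicate 4 was the highest of no group. The H3 mean was 7.49, 7.68, 7.97 and 8.02 in TMP195, 7.90, 7.98, 8.36 and 8.28 in MYCi975, 7.99, 7.89, 8.02 and 8.0 in Combo, and 8.19, 8.56, 7.93 and 8.14 in Vehicle. In H3, replicate 4 was the highest in TMP195 but not in MYCi975, Combo or Vehicle. The H1 mean was highest in Vehicle replicate 4 (11.24), followed by TMP195 replicate 4 (10.82) and MYCi975 replicate 4 (10.73), and ran from 9.84 to 10.50 in the other libraries.

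**Figure D2:**
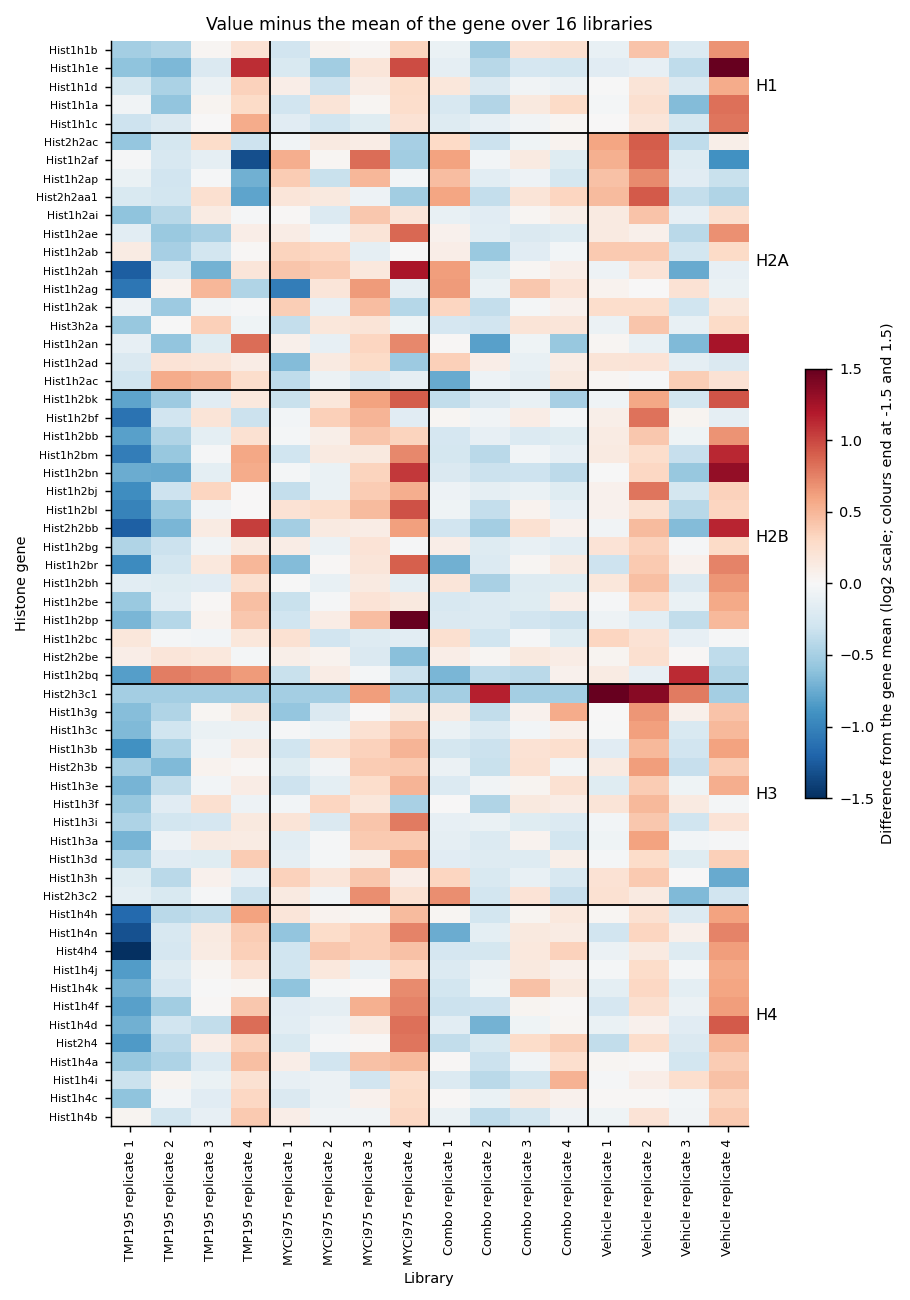
Value of each of the 59 histone genes (rows, ordered within each class by the difference of TMP195 from Vehicle) minus the mean of that gene over 16 libraries (columns), on the log2 scale. Blue prevails in TMP195 replicate 1, and red in Vehicle replicates 2 and 4.

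The spread between libraries of 1 group was larger for these genes than for most. Their residual SD had a median of 0.346 log2 units, from 0.180 for Hist1h2bg to 0.723 for Hist1h1e, against a median of 0.222 over the 15715 genes tested. By class the median was 0.352 for H1, 0.364 for H2A, 0.393 for H2B, 0.318 for H3 and 0.408 for H4.

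TMP195 was compared with Vehicle to ask how inhibition of class IIa histone deacetylases affects tumour cells in the animal. Histone genes of all 5 classes were lower in TMP195, with median differences from -0.40 log2 units for H2B to -0.25 for H1, but no single gene passed the test. The difference was below 0 for 55 of 59 genes (93.2%), against 53.7% of all genes tested, with a median of -0.36 against -0.01. All 5 H1, 12 H3 and 12 H4 genes were below 0, with 12 of 14 H2A and 14 of 16 H2B genes, and the class medians were -0.25, -0.38, -0.33, -0.33 and -0.40 in that order. By limma with Benjamini-Hochberg adjustment, 0 of 15715 genes (0%) were called at an adjusted p under 0.05, and the smallest adjusted p among the histone genes was 0.945. At an unadjusted p under 0.05 there were 10 histone genes (16.9%), all lower, whereas 2.44% of all genes tested had such a p and were lower. No histone gene had all TMP195 libraries below all Vehicle libraries, against 1.40% of the genes tested.

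Among H2B genes, Hist1h2bb had 7.82, 8.18, 8.48 and 8.86 in TMP195, against 8.75, 9.03, 8.57 and 9.31 in Vehicle. Vehicle replicates 1 and 3 lay below TMP195 replicate 4, and the difference was -0.58 (SE 0.19, limma adjusted p = 0.945). Hist1h2bg had 8.61, 8.75, 9.02 and 9.21 in TMP195, against 9.27, 9.42, 9.05 and 9.35 in Vehicle, a difference of -0.38 (SE 0.13). TMP195 replicate 4 alone lay inside the Vehicle range. The H3 gene Hist1h3c had 7.87, 8.23, 8.44 and 8.45 in TMP195, against 8.53, 9.15, 8.31 and 9.02 in Vehicle, a difference of -0.51 (SE 0.18). Vehicle replicate 3 lay below TMP195 replicates 3 and 4.

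The H3 gene Hist2h3c1 was at the lowest value of the table, 4.84, in all 4 TMP195 libraries. It was at 5.99 in MYCi975 replicate 3, at 6.53 in Combo replicate 2 and at 4.84 in the other libraries of these groups. In Vehicle it had 7.09, 6.72, 6.13 and 4.84. It lay 1 log2 unit or more above the lowest value in 5 libraries, of which 3 were Vehicle libraries, which makes it the gene closest to the limit among those kept. It was thus kept mainly through the group in which it is high, so no difference is given for it. Without it, 9 of 58 histone genes had an unadjusted limma p under 0.05 for TMP195 minus Vehicle, 1 for MYCi975 minus Vehicle, 4 for Combo minus Vehicle and 1 for the interaction. Of its words of 31 bases 35.4% also occur in Hist2h3c2, whose values ran from 7.10 to 7.40 in TMP195, from 7.37 to 8.12 in MYCi975, from 7.07 to 8.12 in Combo and from 6.76 to 7.65 in Vehicle. Hist2h3c2 was picked after its values were seen.

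The remaining genes with the highest mean value in their class gave the following differences between TMP195 and Vehicle. The H1 genes Hist1h1c and Hist1h1d differed by -0.17 (SE 0.20) and -0.25 (SE 0.18). Hist2h2aa1 and Hist1h2ai, both H2A, differed by -0.40 (SE 0.29) and -0.40 (SE 0.16). Of the words of 31 bases of Hist2h2aa1, 89.6% also occur in Hist2h2aa2. That copy was above the lowest value only in TMP195 replicate 4 and Vehicle replicate 4, so the difference of Hist2h2aa1 does not describe the pair. The H2B genes Hist2h2bb and Hist1h2bc differed by -0.42 (SE 0.41) and -0.03 (SE 0.14). Hist2h3b and Hist1h3b, both H3, differed by -0.48 (SE 0.21) and -0.49 (SE 0.25), and the H4 genes Hist1h4n and Hist1h4d by -0.47 (SE 0.34) and -0.31 (SE 0.31). Only the differences of Hist1h2ai and Hist2h3b were over 2 SE in this group.

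The size of the TMP195 difference depended on libraries of both groups, and of single libraries most on TMP195 replicate 1. Without TMP195 replicate 1 the median was -0.19 with 54 of 59 genes below 0. Without TMP195 replicate 2 alone it was -0.30 with 54 of 59, and without TMP195 replicates 1 and 2 it was -0.05 with 37 of 59. These 2 libraries were the lowest of all 16 for the histone genes and also had the highest means of 10 leukocyte markers. The 2 highest for the histone genes, Vehicle replicates 2 and 4, were not left out together. Without Vehicle replicate 4 the median was -0.25, and without Vehicle replicate 2 it was -0.28, each with 52 of 59 genes below 0. With the mean of the DNA replication list as a covariate the median was -0.12, and with the leukocyte mean it was -0.22.

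The comparison of MYCi975 with Vehicle asks about inhibition of MYC. The histone genes lay close to Vehicle, with a median difference of -0.07 and 39 of 59 (66.1%) below 0, against 52.9% of all genes tested and a median of -0.01. The class medians were -0.16 for H1, -0.07 for H2A, -0.12 for H2B, -0.02 for H3 and -0.01 for H4. By limma 0 of 15715 genes (0%) were called, and 2 histone genes (3.39%) had an unadjusted p under 0.05, against 3.03% of the genes tested. The 2 were Hist1h2ah and Hist2h3c1, which was kept mainly through Vehicle. In MYCi975, Hist2h3c1 was above the lowest value of the table only in replicate 3. Without it, 1 of 58 histone genes (1.72%) had such a p. The histone genes thus passed at about the share of all genes, or below it without Hist2h3c1. The sign of the median was not stable: it was 0.03 without MYCi975 replicate 1, 0.01 without Vehicle replicate 4 and 0.04 with the DNA replication covariate.

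The H2A gene Hist1h2ah had 8.17, 8.14, 7.91 and 8.98 in MYCi975, against 7.67, 7.96, 7.0 and 7.63 in Vehicle, with MYCi975 replicate 3 inside the Vehicle range. It differed by 0.73 (SE 0.29, limma adjusted p = 0.999), and 91.2% of its words of 31 bases occur in other histone genes. The H2B gene Hist1h2bl had 7.69, 7.73, 7.94 and 8.42 in MYCi975, against 7.54, 7.70, 7.06 and 7.80 in Vehicle, a difference of 0.42 (SE 0.23). The H3 gene Hist1h3g had 7.03, 7.39, 7.62 and 7.76 in MYCi975, against 7.62, 8.27, 7.69 and 8.04 in Vehicle, a difference of -0.45 (SE 0.23). The groups overlapped for both genes. For 1 gene, the H2A gene Hist1h2ac, every MYCi975 library (7.78 to 8.07) lay below every Vehicle library (8.14 to 8.52), which is 1.69% of the histone genes against 0.706% of the genes tested.

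The comparison of Combo with Vehicle asks what both compounds do together. Histone genes of all classes were lower by their medians, H2B genes by the most, and again no gene passed. The difference was below 0 for 52 of 59 genes (88.1%), against 52.6% of all genes tested, with a median of -0.23 against -0.01. The class medians were -0.24 for H1, -0.17 for H2A, -0.36 for H2B, -0.22 for H3 and -0.20 for H4. By limma 0 of 15715 genes (0%) were called, and 5 histone genes (8.47%), all lower, had an unadjusted p under 0.05, whereas 1.92% of all genes tested had such a p and were lower. Of these 5 genes 4 were H2B, and the remaining one was Hist2h3c1, at the lowest value of the table in 3 of 4 Combo libraries and kept mainly through Vehicle.

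Hist1h2bb had 8.38, 8.50, 8.42 and 8.45 in Combo, against 8.75, 9.03, 8.57 and 9.31 in Vehicle, and the groups did not overlap. The difference was -0.48 (SE 0.19, limma adjusted p = 0.987). Among the histone genes, 2 (3.39%) had every Combo library below every Vehicle library, against 1.53% of the genes tested, and the other was the H4 gene Hist1h4b, named after its values were seen, at 6.03 to 6.34 in Combo and 6.35 to 6.80 in Vehicle. The H2B gene Hist1h2bh had 7.20, 6.53, 6.83 and 6.84 in Combo, against 7.19, 7.46, 6.81 and 7.68 in Vehicle, a difference of -0.44 (SE 0.18) with overlapping groups. Hist1h2bg differed by -0.30 (SE 0.13). The median was -0.15 without Vehicle replicate 2 or without Vehicle replicate 4, and -0.10 with the DNA replication covariate.

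**Figure D3:**
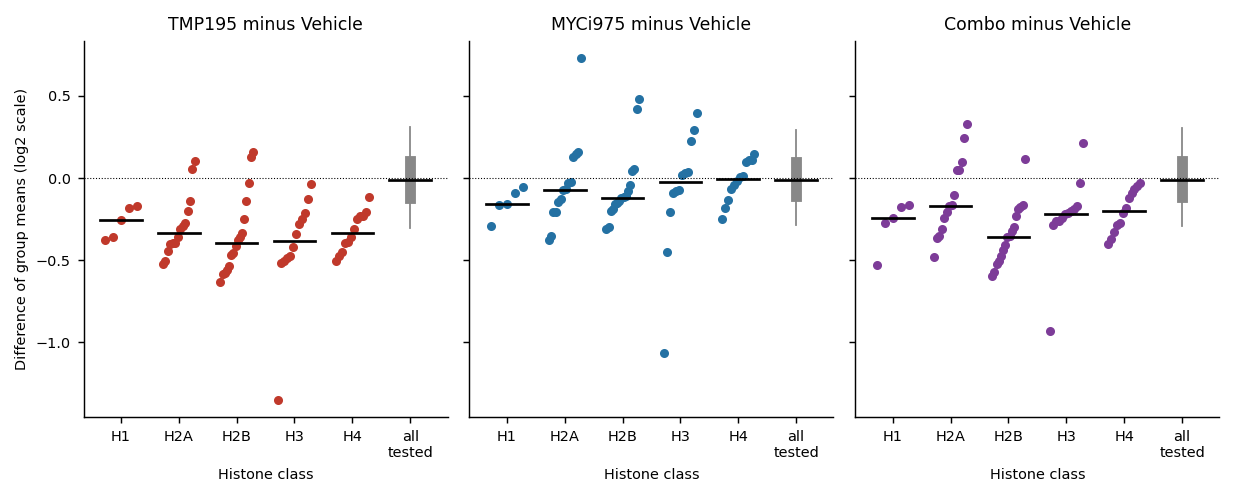
Difference of each treated group from Vehicle (vertical axis, log2 scale) for every histone gene (points) by class, with the class median as a black line; the grey bar gives the middle 50% and the thin line the middle 90% of all 15715 genes tested. In TMP195 the class medians run from -0.40 to -0.25, in MYCi975 from -0.16 to -0.01 and in Combo from -0.36 to -0.17, and the 3 panels share the Vehicle libraries.

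Combo was set against each single compound, and the comparisons share libraries with those above. The labels do not give the doses in Combo, so the dose of the shared compound may differ between the groups. Against MYCi975, 48 of 59 histone genes (81.4%) were below 0, against 49.8% of all genes tested, with a median of -0.18. By limma 0 of 15715 genes (0%) were called, and 4 histone genes (6.78%) had an unadjusted p under 0.05, all lower, whereas 1.18% of all genes tested had such a p and were lower. The H2B genes Hist1h2bl and Hist1h2bk were first among them. Hist1h2bl had 7.40, 7.12, 7.52 and 7.35 in Combo, all below the MYCi975 values of 7.69, 7.73, 7.94 and 8.42 (difference -0.60, SE 0.23, limma adjusted p = 1). Hist1h2bk had 8.50, 8.66, 8.76 and 8.38 in Combo, against 8.54, 9.05, 9.48 and 9.79 in MYCi975 (difference -0.64, SE 0.28), with overlap. In all, 4 histone genes (6.78%) had every Combo library below every MYCi975 library, against 0.815% of the genes tested. They were Hist1h2bl, Hist1h2bb, Hist1h2bn and Hist1h4b, of which Hist1h2bn and Hist1h4b were named after their values were seen. Of their words of 31 bases, 88.6%, 47.7%, 88.0% and 59.7% in that order occur in other histone genes. The 4 genes are thus not fully separate measurements. Without Combo replicate 2 the median over the histone genes was -0.11.

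Against TMP195, 18 of 59 histone genes (30.5%) were below 0 in Combo, against 49.3% of all genes tested, with a median of 0.10. By limma 0 of 15715 genes (0%) were called, and 2 histone genes (3.39%) had an unadjusted p under 0.05, against 5.33% of the genes tested. Hist1h2ac had 7.40, 8.08, 8.01 and 8.30 in Combo, against 7.85, 8.71, 8.66 and 8.41 in TMP195 (difference -0.46, SE 0.20). Hist1h2ah had 8.38, 7.57, 7.78 and 7.85 in Combo, against 6.51, 7.52, 7.04 and 7.93 in TMP195 (difference 0.64, SE 0.29). Both pairs of groups overlapped. The direction of the median was not stable: it was -0.02 without TMP195 replicate 1, -0.14 (44 of 59 genes below 0) without TMP195 replicates 1 and 2, and, with all libraries kept, -0.04 (37 of 59) with the leukocyte covariate.

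The interaction, Combo minus MYCi975 minus TMP195 plus Vehicle, asks whether the effect of both compounds departs from the sum of the single ones. It does so only if each compound had the same dose in Combo as alone, which the labels do not say. Over the histone genes the interaction had a median of 0.18, with 18 of 59 (30.5%) below 0, against 48.2% of all genes tested. By limma 0 of 15715 genes (0%) were called, and 2 histone genes (3.39%), both H3, had an unadjusted p under 0.05, against 3.0% of the genes tested. They were Hist1h3g (0.77, SE 0.32, limma adjusted p = 1) and Hist2h3c1, which is at the lowest value in most libraries. The median was 0.03 without TMP195 replicate 1 and -0.10 without TMP195 replicates 1 and 2. With all libraries kept, it was -0.03 (32 of 59 genes below 0) with the DNA replication covariate and 0.01 with the leukocyte covariate.

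The differences were also set out by cluster and by how far each gene shares sequence. For TMP195 minus Vehicle the median was -0.36 over 49 Hist1 genes and -0.41 over 8 Hist2 genes, and the single Hist3 and Hist4 genes differed by -0.20 and -0.45. For Combo minus Vehicle it was -0.24 over Hist1 and -0.15 over Hist2. Over the 24 genes that share at most 50% of their words, the median was -0.25 for TMP195, -0.14 for MYCi975 and -0.23 for Combo. Over the 35 that share more, it was -0.39, -0.04 and -0.23 in that order. Over the 20 genes whose annotated transcript ended within 100 bases of the stem-loop, the median was -0.47 for TMP195, -0.06 for MYCi975 and -0.27 for Combo, against -0.25, -0.14 and -0.25 over the 21 that run further. The 18 genes without a stem-loop match form a separate set, for which mean values are given in place of median differences. Their mean value was 8.51 in TMP195, 8.82 in MYCi975, 8.60 in Combo and 8.79 in Vehicle. These splits were not tested. In 10 divergent pairs of H2A and H2B genes, the difference between partners had a median SD over the 16 libraries of 0.43 (0.293 to 0.723). Over 214 other combinations of H2A and H2B genes the median was 0.508 (0.151 to 1.04), a range that encloses that of the 10 pairs.

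Libraries numbered 4 were higher than the others of their group for most histone genes in TMP195, MYCi975 and Vehicle, and less so in Combo. Against the mean of replicates 1 to 3, the median over the 59 genes was 0.49 in TMP195, 0.35 in MYCi975, 0.11 in Combo and 0.36 in Vehicle. Replicate 4 was the highest of its group for 64.4%, 59.3%, 33.9% and 54.2% of the histone genes in that order of groups, against 29.2%, 28.1%, 23.8% and 31.3% of the genes tested. All 12 H4 genes were above the mean of the other replicates in every group, with medians of 0.78 in TMP195, 0.42 in MYCi975, 0.28 in Combo and 0.58 in Vehicle. H2A genes were split, with medians of 0.03, -0.12, 0.04 and 0.09 in that order.

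Single genes stood further from the other replicates in libraries numbered 4, in both directions. The following 4 were chosen after their values were seen, apart from Hist2h2aa1. The H1 gene Hist1h1e was higher in replicate 4 by 1.60 in TMP195, 1.17 in MYCi975 and 1.96 in Vehicle, but lay 0.01 below in Combo (-0.01). The H2A gene Hist1h2af lay on the other side, at -1.19 in TMP195, -0.99 in MYCi975, -0.41 in Combo and -1.32 in Vehicle. Hist2h2aa1 was at -0.70 in TMP195, -0.60 in MYCi975, 0.18 in Combo and -0.80 in Vehicle. Its near-identical copy Hist2h2aa2, below the filter, was at the lowest value in 14 libraries and at 12.31 in TMP195 replicate 4 and 12.29 in Vehicle replicate 4. In those 2 libraries Hist2h2aa1 was at 11.75 and 12.08, against 12.02 to 13.45 in the others. All words of 31 bases of Hist2h2aa2 (100%) occur in Hist2h2aa1, and 89.6% of those of Hist2h2aa1 occur in Hist2h2aa2, so how reads were divided within the pair is uncertain. The values of -0.70 in TMP195 and -0.80 in Vehicle therefore describe Hist2h2aa1 alone and not the pair.

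**Figure D4:**
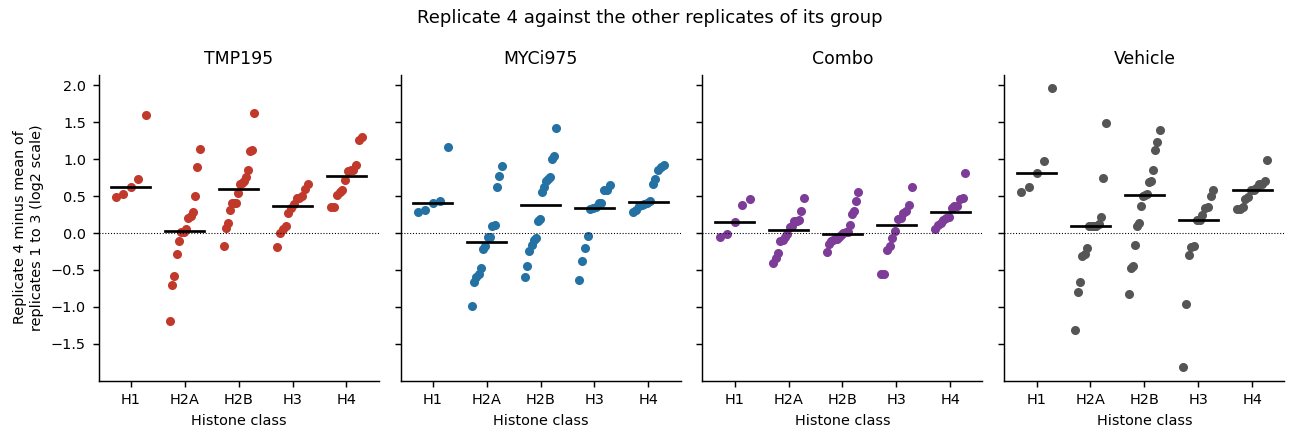
Value of replicate 4 minus the mean of replicates 1 to 3 of the same group (vertical axis, log2 scale) for every histone gene (points) by class, with class medians as black lines. All H4 points lie above 0 in the 4 groups, and the H2A points spread from -1.32 to 1.49.

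The 7 genes below the filter were Hist1h1t and Hist1h2ba, which encode testis histones, Hist2h2ab, Hist3h2ba, Hist1h4m, Hist1h2ao and Hist2h2aa2. The testis genes ran from 4.84 to 5.62 and from 4.84 to 5.56 over the 16 libraries. Hist1h4m, at 3 libraries 1 log2 unit above the lowest value, was the gene just outside the limit.

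The genes that make and process histone mRNA lay near Vehicle in every group. Of 29 tested, 19 were lower in TMP195 (median -0.04), 21 in MYCi975 (-0.03) and 21 in Combo (-0.05), and 0, 0 and 1 had an unadjusted p under 0.05. Over all genes tested, 53.7% were lower in TMP195, 52.9% in MYCi975 and 52.6% in Combo, and 4.88%, 3.03% and 4.09% had such a p in that order of groups. Slbp, the stem-loop binding protein, averaged 10.62 ± 0.18 in TMP195, 10.60 ± 0.17 in MYCi975, 10.62 ± 0.26 in Combo and 10.66 ± 0.17 in Vehicle (SD, n = 4 each). Npat averaged 10.86 ± 0.04, 10.89 ± 0.18 and 10.85 ± 0.13 in the treated groups in that order and 10.91 ± 0.13 in Vehicle. The U7 proteins Lsm10 and Lsm11 differed from Vehicle in TMP195 by -0.04 (SE 0.14) and -0.09 (SE 0.19). Casp8ap2, which encodes the histone locus body protein FLASH, differed by 0.02 (SE 0.18), and Zfp473, a U7-associated zinc finger protein, by 0.03 (SE 0.18).

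Most replacement histones are made throughout the cell cycle from polyadenylated mRNAs. Of 11 genes listed as replacement histones, 11 were lower in TMP195 (median -0.19), 9 in MYCi975 (-0.14) and 8 in Combo (-0.02). In that order of groups, 1, 1 and 0 had an unadjusted limma p under 0.05. Over all genes tested, 53.7%, 52.9% and 52.6% were lower, and 4.88%, 3.03% and 4.09% had such a p. H3f3a and H3f3b, both for H3.3, differed in TMP195 by -0.18 (SE 0.14) and -0.10 (SE 0.10), and H3f3b in MYCi975 by -0.30 (SE 0.10). H2afz, for H2A.Z, differed by -0.32 (SE 0.17) in TMP195, -0.34 in MYCi975 and -0.18 in Combo. H2afx, for the DNA damage variant H2A.X, differed by -0.28 (SE 0.19) and H1f0, a linker histone of resting cells, by -0.26 (SE 0.14) in TMP195. No gene of this list was called by limma, and its smallest adjusted p in TMP195 was 0.945. Of 23 histone chaperones and enzymes that acetylate new histones, 17 were lower in TMP195 (median -0.09), 16 in MYCi975 (-0.08) and 16 in Combo (-0.02).

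Genes of DNA replication had smaller median differences than the histone genes in TMP195 and Combo, and a larger one in MYCi975. Of 56 DNA replication genes, 54 were lower in TMP195 (median -0.19), 48 in MYCi975 (-0.14) and 49 in Combo (-0.17), and 8, 1 and 3 had an unadjusted p under 0.05, against shares over all genes tested of 53.7%, 52.9% and 52.6% lower and of 4.88%, 3.03% and 4.09% with such a p. Their mean was 9.90, 9.79, 10.02 and 9.93 in TMP195, 9.87, 10.19, 9.89 and 9.99 in MYCi975, 9.96, 9.87, 9.98 and 10.01 in Combo, and 9.96, 10.17, 9.93 and 10.36 in Vehicle. Vehicle replicate 4 was highest here as in the histone genes, but TMP195 replicate 1 was not the lowest. Ccne1, a cyclin of the start of S phase, had 7.94, 7.87, 7.89 and 7.91 in TMP195, all below the Vehicle values of 8.21, 8.39, 8.26 and 8.57 (difference -0.45, SE 0.14, limma adjusted p = 0.945). In TMP195, its partner kinase gene Cdk2 differed by -0.20 (SE 0.12), Ccne2 by -0.10 (SE 0.13), the S phase transcription factor gene E2f1 by -0.17 (SE 0.11) and Pcna, the sliding clamp of DNA polymerase, by -0.18 (SE 0.13). All 38 mitosis genes were lower in TMP195 (median -0.25) and in Combo (-0.20), and 37 in MYCi975 (-0.16).

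Markers of other cells and signs of RNA quality were set beside the TMP195 difference. The mean of 10 of 12 leukocyte markers that were tested was 7.72, 7.15, 6.50 and 6.72 in TMP195, 6.04 to 7.03 in MYCi975, 6.13 to 6.51 in Combo and 6.27 to 6.77 in Vehicle. Of the defining markers, Ptprc (CD45) ran from 5.81 to 8.95 over the 16 libraries, and Adgre1 of macrophages (4.84 to 5.84) and Cd3e of T cells (4.84 to 5.56) stayed below the filter. Macrophage and monocyte markers, with 8 of 13 tested, averaged 6.34 to 7.87 in TMP195, 6.19 to 6.39 in MYCi975, 6.18 to 6.63 in Combo and 6.21 to 6.69 in Vehicle. Neutrophil markers, with 6 of 10 tested, averaged 6.75 to 7.58 in TMP195, 6.33 to 8.16 in MYCi975, 6.18 to 6.87 in Combo and 6.38 to 6.84 in Vehicle. The highest of all 16 libraries for them was MYCi975 replicate 3, and their median difference from Vehicle was 0.64 in TMP195, 0.46 in MYCi975 and -0.09 in Combo. Of 12 markers of T, NK and B cells 1 was tested, and of 8 endothelial markers 3, with means of 6.91 to 7.40 in TMP195, 6.75 to 7.08 in MYCi975, 6.69 to 7.09 in Combo and 6.56 to 7.23 in Vehicle. Fibroblast markers, with 8 of 9 tested, averaged 11.06 to 11.56 in TMP195, 10.58 to 11.83 in MYCi975, 11.47 to 11.93 in Combo and 11.08 to 11.59 in Vehicle. Of 19 genes of the stress response to dissociation, 16 were lower in TMP195 (median -0.27), 14 in MYCi975 (-0.12) and 15 in Combo (-0.16), and their mean ran from 11.42 to 11.63 in TMP195, from 11.42 to 12.11 in MYCi975, from 11.19 to 12.07 in Combo and from 11.45 to 12.01 in Vehicle. Of 8 epithelial and LLC1 tumour cell markers 6 were tested. Their mean ran from 9.57 to 10.30 in TMP195 and from 9.64 to 9.94 in MYCi975. It ran from 9.68 to 9.94 in Combo and from 9.53 to 9.83 in Vehicle. TMP195 replicate 1 was the highest of all 16 libraries for these markers (10.30), as for the leukocyte markers. Among them, the tumour keratin genes Krt8 and Krt18 ran from 10.17 to 10.97 and from 10.18 to 11.45. The epithelial marker Epcam (4.84 to 6.17) was below the filter. RNAs without a poly(A) tail or kept in the nucleus, with 8 of 18 tested, averaged 10.61, 11.82, 11.59 and 12.31 in TMP195, 11.77 to 11.94 in MYCi975, 11.63 to 12.01 in Combo and 11.83 to 11.94 in Vehicle. Of these 8 RNAs, Rmrp and Scarna10 were picked after their values were seen. In TMP195 replicate 1 the RNase MRP RNA Rmrp was at 9.45, against 10.84 to 12.25 elsewhere, and Scarna10 at 9.04, against 11.47 to 12.38 elsewhere. TMP195 replicate 1 thus stood lowest for the mean of the 8 RNAs as for that of the histone genes. With the mean of the 8 RNAs as a covariate, the TMP195 median over the histone genes was -0.18. This covariate was tried only once these values were known. The part of leukocytes, dissociation, RNA recovery and cell division in the histone differences was not tested.

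**Figure D5:**
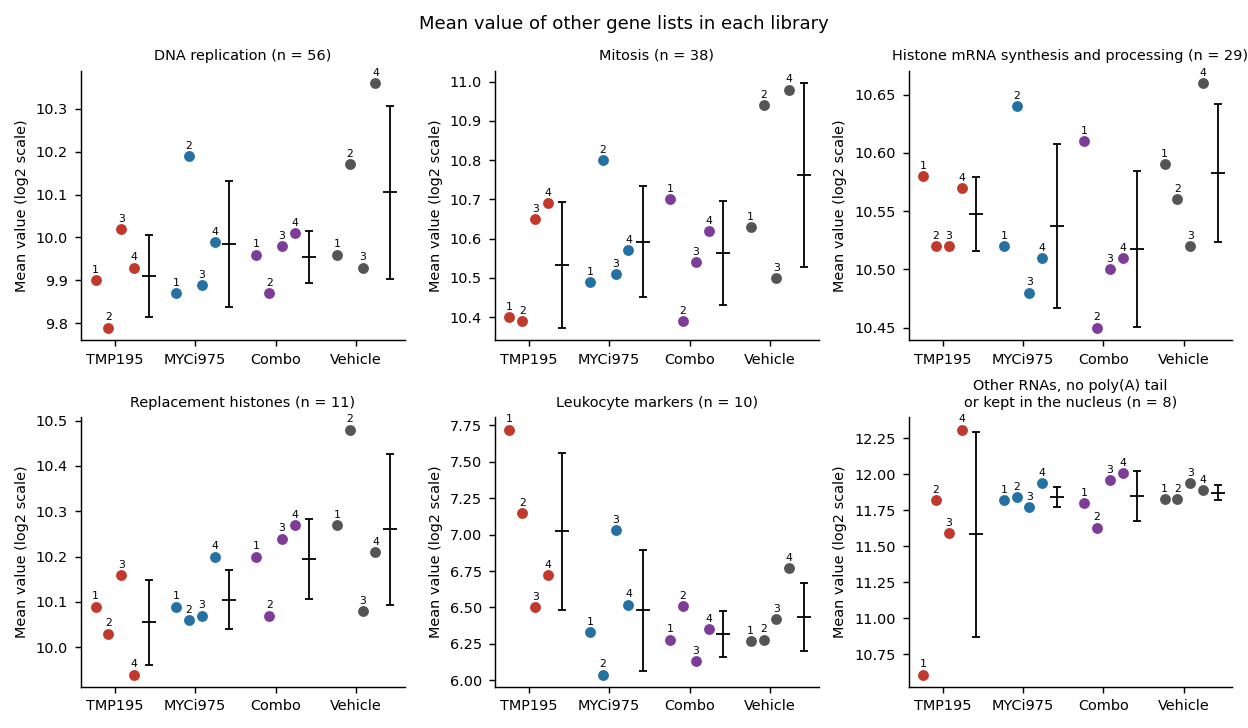
Mean value of other gene lists (vertical axis, log2 scale, not starting at 0) in every library (points, numbered by replicate), by treatment, with group mean and SD in black (n = 4). TMP195 replicate 1 is the highest library for leukocyte markers (7.72) and the lowest for RNAs without a poly(A) tail or kept in the nucleus (10.61), and Vehicle replicate 4 is the highest for DNA replication (10.36).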

How the data were processed

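RNA was measured in 16 libraries of enriched LLC1 tumour cells, 4 in each of 4 groups. The submitters' processing notes name Salmon with no version and hg38 as build, although the samples are mouse; a mouse annotation is not given in the sources used here. Values in log2 were deposited by the authors after variance stabilisation, 1 column per library, with a shared lowest value of 4.84, and differences of weakly measured genes are compressed. Library totals are unknown, so no counting interval was computed. Of 24334 identifiers, 95.13% matched a symbol.

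The filter asked for 1 log2 unit or more over the lowest value in 4 or more libraries. Group means of all 15715 genes in 16 libraries were fitted as a linear model with limma 3.58.1 in R 4.3.3 (empirical Bayes, intensity trend, two-sided). P-values were adjusted by the Benjamini-Hochberg method over all genes within each of 6 comparisons, with 0.05 as the threshold of a call. Every p-value and adjusted p in the text comes from limma. The fit was tested on simulated data. Sequences came from GENCODE M21 and RefSeq (GRCm38.p6); tables were handled with Python and pandas. Same-numbered libraries were not treated as pairs.

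The genes and lists were chosen with earlier results of these data known. The named genes are, by rule, the 2 members of each class with the highest mean value, the 4 with the smallest p in each comparison with Vehicle, the 2 with the smallest p in each other comparison, and 16 genes of histone mRNA processing, replacement histones and S phase. Alternatives were no filter, a stricter filter, no trend, robust moderation, quantile normalisation, median centring, quality weights, a replicate block, leukocyte and DNA replication covariates, the compared groups alone, and leaving out single libraries, all libraries numbered 4 or the 2 libraries highest in leukocyte markers. The mean, and the members with a mean value at or above the median member, were tried in place of the median.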

Additional observations from a re-analysis of the deposited data

Results flagged for a closer look

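In groups of 4 libraries, the gap between the highest or lowest library and its neighbour was compared with the range of the group for the named genes and the histone classes. Of 168 such groups, 9 exceeded Dixon's critical value, and chance flags about 1 in 20. The mean over the H2A genes stood out in MYCi975 replicate 3 (9.20). Hist2h3c1 was detected in a single library of its group in MYCi975 replicate 3 (5.99) and Combo replicate 2 (6.53). Hist1h2bh stood out in TMP195 replicate 4 (7.26). Of the genes outside the histone clusters, Npat was high in Vehicle replicate 2 (11.11), Lsm10 low in MYCi975 replicate 1 (6.72), H3f3b high in MYCi975 replicate 4 (13.58), Cdk2 low in Combo replicate 3 (10.04) and Pcna high in MYCi975 replicate 2 (12.60). No library stood out by this measure for the mean over all 59 histone genes in any group.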

How the results depend on the processing

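The median over the histone genes kept its sign in all settings for TMP195 minus Vehicle, Combo minus Vehicle and Combo minus MYCi975. Leaving out single libraries gave medians from -0.471 to -0.19 for TMP195 minus Vehicle, -0.168 to 0.029 for MYCi975 minus Vehicle, -0.314 to -0.151 for Combo minus Vehicle, -0.23 to -0.11 for Combo minus MYCi975, -0.02 to 0.23 for Combo minus TMP195 and 0.03 to 0.29 for the interaction. Without TMP195 replicates 1 and 2, the 2 libraries highest in leukocyte markers, the median was -0.052 for TMP195 minus Vehicle and -0.098 for the interaction; the cause was not tested. In the other settings medians moved by less than 0.26, the SD between replicates of the library median. No histone gene was called in any setting.

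Counts of called genes were 0 in all comparisons, with exceptions. Combo minus TMP195 had 65 with quality weights and 1 without the trend, and Combo minus Vehicle had 1 with the compared groups alone. Leaving out single libraries gave 0 to 2 for TMP195 minus Vehicle and Combo minus TMP195, and 0 to 1 for MYCi975 minus Vehicle and Combo minus MYCi975. The causes were not tested. Same-numbered libraries had deviations correlated from -0.24 to 0.428, with 15 of 24 pairs over 0.1 and 16 best with their own number. For number 1 (0.202 to 0.428) and number 4 (0.172 to 0.387) all 6 pairs were over 0.1 and best with their own number, for number 2 (-0.109 to 0.244) 2 were over 0.1, and for number 3 (-0.24 to 0.116) 1 was. The labels do not say what a number stands for, and not every pair was over 0.1, so the numbers were not used as pairs. With the replicate block, 0 genes were called in each comparison and the TMP195 median was -0.358, as without it by construction. Of 3586 values of named genes under alternatives, 15 moved by over 1 residual SD and 172 changed sign. Depth is unknown and limits the low genes, and 4 libraries per group limit the rest.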
